A study of Homo sapiens and Mus musculus with 18 samples.

Results

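GATA4, GATA5 and GATA6, together with HAND1, HAND2, NKX2-5, TBX5, TBX20, ISL1 and MYL7, were followed through human and mouse gastruloid development. Gastruloids are aggregates of embryonic stem cells (ESCs) that elongate and form derivatives of the germ layers after activation of WNT signalling. The 10 genes were found by symbol in each species, giving 20 genes among the 74630 in the count tables (10 of 44910 in human and 10 of 29720 in mouse). RNA-seq of 18 samples was used, with 2 replicates in each of 9 groups. In human, H9 ESCs were sampled in the naïve and in the primed state, and RUES2-GLR, a line carrying germ layer reporters, as primed ESCs and as RA-gastruloids made from them, termed early at 24 h and late at 120 h. H9 and RUES2-GLR are established human ESC lines, each from a single embryo. The naïve H9 cells were chemically reset cells grown in PXGL medium on irradiated mouse embryonic fibroblast feeders and then passaged without feeders. For RA-gastruloids, the ESCs received CHIR99021, an agonist of WNT signalling, and retinoic acid (RA) before aggregation, and Matrigel and RA were added later. The mouse samples, all of the E14Tg2a line, were naïve ESCs in 2iLif medium, epiblast-like cells (EpiLCs) and gastruloids of an early and a late stage. Mouse gastruloids were seeded from the naïve ESCs and received a pulse of CHIR99021 without Matrigel or RA. The libraries were made from bulk RNA of many pooled gastruloids or cultured cells, so fewer cells of a type and less RNA per cell cannot be told apart.

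The 10 genes belong to the network that specifies and builds the heart. The GATA factors are zinc finger proteins that bind GATA motifs, and GATA4, GATA5 and GATA6 act in cardiac mesoderm and in endoderm, whereas GATA1, GATA2 and GATA3 are better known from blood, trophoblast and other ectodermal tissues. HAND1 and HAND2 are basic helix-loop-helix proteins that bind E-boxes, HAND1 also being expressed in extraembryonic mesoderm and trophoblast. NKX2-5 is a homeodomain factor of cardiac progenitors, TBX5 and TBX20 are T-box factors, and ISL1 is a LIM-homeodomain factor of second heart field progenitors and of motor neurons. MYL7 encodes the atrial myosin light chain, a component of the contractile apparatus and the only one of the 10 genes that does not encode a transcription factor.

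Depth set what could be seen. Library totals ranged from 3681739 to 38771193 counts in human and from 6487157 to 20052505 in mouse, and a floor of 3 counts corresponded to between 0.0715 and 0.956 counts-per-million (CPM) in human libraries and between 0.148 and 0.447 CPM in mouse libraries. The shallowest library was replicate 2 of the primed RUES2-GLR ESCs. After the filter on low counts, 18300 human and 15003 mouse genes were tested. All 10 mouse genes passed the filter and 7 of the 10 human genes did; human HAND2, NKX2-5 and TBX5 did not and were not tested between human groups. Levels were CPM scaled by TMM, given as mean ± SD with n = 2, and changes were log2 fold changes ± SE by the quasi-likelihood test of edgeR, whose p-values were adjusted by the Benjamini-Hochberg method over all tested genes. Per the study's methods, the 2 replicates of a stage were biological ones taken in the same batch. The p-values measure the spread between these samples only. A gene was called when its adjusted p was under 0.05 and its absolute log2 fold change was above 1.

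The promoter windows of HAND2 and ISL1 are shown because both genes held a GATA motif near their start in both species, and rose in late mouse but not in late human gastruloids. RefSeq windows on GRCh38.p14 were found for 7 of the 10 human genes, and windows on GRCm39 were read for all 10 mouse genes at the gene starts of GENCODE, which for Gata5, Gata6, Hand2, Isl1 and Myl7 differ from the starts in the count table given further on. On either strand, the letters AGATAA were searched for GATA factors, the letters CAGATG for an E-box of HAND proteins, the letters CAAGTG for NKX2-5 and the letters GGTGTG for T-box factors, and capitals mark where they were found. None of the matches found overlapped another. These are the 250 bases before the annotated start, 5′ to 3′ on the strand of the gene, for human HAND2 (chr4:173530230-173530479, minus strand), human ISL1 (chr5:51383198-51383447, plus strand) and mouse Isl1 (chr13:116446236-116446485, minus strand).
HAND2: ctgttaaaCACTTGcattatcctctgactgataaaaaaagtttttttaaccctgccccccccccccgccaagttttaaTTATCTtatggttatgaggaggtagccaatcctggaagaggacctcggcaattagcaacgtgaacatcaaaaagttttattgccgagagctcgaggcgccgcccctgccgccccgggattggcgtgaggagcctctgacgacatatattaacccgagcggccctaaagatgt
ISL1: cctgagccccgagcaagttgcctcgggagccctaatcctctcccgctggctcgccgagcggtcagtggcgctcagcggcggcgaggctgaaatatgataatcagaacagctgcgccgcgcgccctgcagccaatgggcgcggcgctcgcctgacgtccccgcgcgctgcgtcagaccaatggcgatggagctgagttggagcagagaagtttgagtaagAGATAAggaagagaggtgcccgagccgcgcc
Isl1: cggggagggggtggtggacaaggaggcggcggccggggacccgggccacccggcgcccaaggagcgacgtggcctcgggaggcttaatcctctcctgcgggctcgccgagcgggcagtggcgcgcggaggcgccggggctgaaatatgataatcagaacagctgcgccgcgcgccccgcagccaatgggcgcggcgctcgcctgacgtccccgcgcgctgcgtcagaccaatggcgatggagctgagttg
The mouse Isl1 window has no capitals because its match lay beyond the start. The human HAND2 window held the GATA letters at -172 and the NKX2-5 letters at -242, counted back from the annotated start. Its mouse counterpart held them at -165 and -228, with the E-box letters at -239, and the human and mouse windows were identical at 218 of 235 aligned positions (92.8%). The ISL1 windows were identical at 182 of 198 aligned positions (91.9%), but the annotated starts differed, so that the GATA letters stood at -31 in human and at 22 in mouse, inside the transcript. Mouse Gata4 held the GATA letters at -71 and -54, and mouse Hand1 held the E-box letters at -139. The T-box letters stood at -22 in mouse Gata6 and at 10 in human MYL7. Mouse Myl7 held the NKX2-5 letters at -158, and no further matches were found. In windows of 300 bases, from 250 before to 50 after the start, the GATA letters occurred in 10.3% of 35116 human and 11.6% of 21738 mouse promoters, the E-box letters in 14.7% and 16.5%, the NKX2-5 letters in 11.5% and 15.3%, and the T-box letters in 16.8% and 20.2%. A match is a description of the letters and not of binding.

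In mouse, every one of the 10 genes rose from early to late gastruloids. Summed over the 10, the level was 8.92 ± 0.966 CPM in naïve cells, 5.31 ± 0.437 CPM in EpiLCs, 7.73 ± 0.732 CPM in early gastruloids and 648 ± 3.25 CPM in late gastruloids. All 10 were called higher, against 20.1% of all tested mouse genes, and 0 of 10 were called lower, against 19.1%. The median log2 change of the 10 was 5.84 with genes at 0 to 3 counts entered by their bound or ratio (6.92 as fitted), compared with -0.03 over all genes tested. In fits without the late group only Gata4, Hand1, Tbx20 and Myl7 passed the filter in any comparison. The other 6 genes entered through the late group, where they were high, and had to differ. The count, the median and the adjusted p-values given below for Gata6, Isl1 and Nkx2-5 from early to late are therefore descriptions. In the plot of mouse levels, both late libraries lay above both early libraries for each gene.

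**Figure D1:**
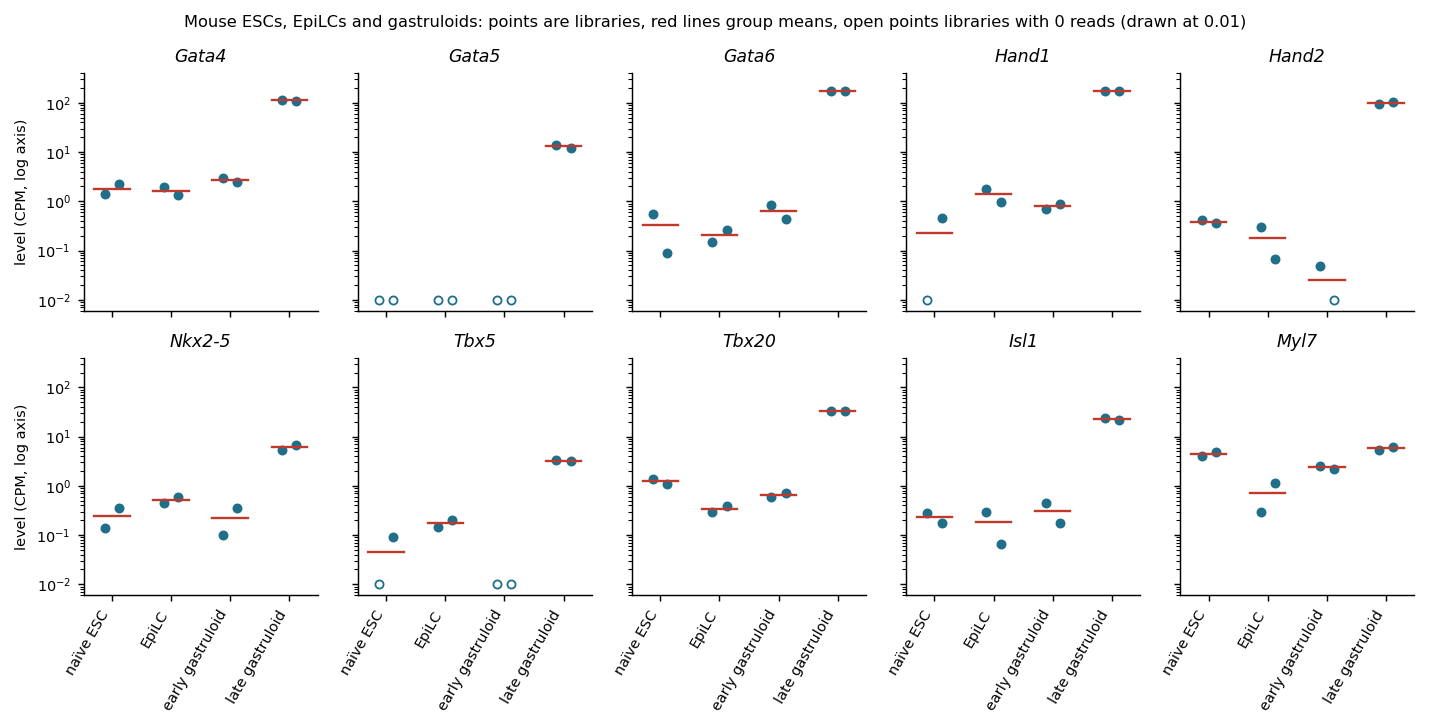
Level of each of the 10 genes in the 8 mouse libraries, in CPM on a log axis, by group; filled points are libraries, open points are libraries with 0 reads drawn at 0.01, and red lines are means of 2 libraries. Late gastruloids stand above the other groups for 9 genes by a wide margin, whereas Myl7 was at 4.40 CPM in naïve ESCs and 5.74 CPM in late gastruloids.

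Among the GATA factors, mouse Gata6 (chromosome 18, 11052064 to 11085635, plus strand, GRCm39) held 0.840 and 0.440 CPM in the early libraries and 178 and 172 CPM in the late ones, a log2 change of 7.96 ± 0.15 (adjusted p = 7.34e-47). Gata4 (chromosome 14, 63436371 to 63509141, minus strand) held 2.96 and 2.46 CPM early and 113 and 111 CPM late, a log2 change of 5.33 ± 0.13 (adjusted p = 8.51e-42). Gata5 (chromosome 2, 179966926 to 179976492, minus strand) had 0 counts in all 6 ESC, EpiLC and early libraries and 117 and 83 counts in the late ones, which made it at least 138-fold higher than the floor of 3 counts over the early group. The 3 paralogues therefore started from different levels, Gata4 being read in every mouse library and Gata5 only in the late ones. Per length of transcript, the late levels of Gata4 and Gata6 were closer than their CPM, at 103 ± 2.83 and 96.7 ± 3.75 transcripts-per-million (TPM), and that of Gata5 was 14.3 ± 1.24 TPM.

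The HAND genes were among the highest of the 10 in late mouse gastruloids. Hand1 (chromosome 11, 57719531 to 57723644, minus strand) held 0.691 and 0.879 CPM early and 175 and 177 CPM late, a log2 change of 7.83 ± 0.15 (adjusted p = 1.54e-46), and at 316 ± 2.40 TPM it was the highest of the 10 per length. Hand2 (chromosome 8, 57774018 to 57777668, plus strand) had 1 count and 0 counts in the early libraries and 826 and 715 in the late ones. The ratio was 3189 with an exact 95% interval from 571 to 126023 that covers counting error only, and the late level was 155 ± 8.26 TPM. Hand1 had 0 and 5 counts in the naïve ESCs and 12 and 15 in EpiLCs.

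The cardiac progenitor factors, Tbx20 (chromosome 9, 24629434 to 24685599), Isl1 (chromosome 13, 116434817 to 116446225), Nkx2-5 (chromosome 17, 27057638 to 27063983) and Tbx5 (chromosome 5, 119970733 to 120023284), reached lower levels. Tbx20 held 0.593 and 0.704 CPM early and 32.8 and 33.4 CPM late, a log2 change of 5.68 ± 0.22 (adjusted p = 1.26e-30). Isl1 held 0.444 and 0.176 CPM early and 23.8 and 22.2 CPM late, a log2 change of 6.01 ± 0.29 (adjusted p = 1.50e-26). Nkx2-5 held 0.0988 and 0.352 CPM early and 5.37 and 6.70 CPM late, a log2 change of 4.89 ± 0.47 (adjusted p = 7.09e-14). Tbx5 had 0 counts in both early libraries and 29 and 21 counts in the late ones, at least 34.5-fold above the floor of 3 counts over the early group. Nkx2-5 and Tbx5 were thus the lowest transcription factors of the set in late mouse gastruloids by CPM, and Tbx5 and Tbx20 the lowest per length, at 2.50 ± 0.182 and 9.90 ± 0.0483 TPM.

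Myl7 (chromosome 11, 5846637 to 5848782) was already at several CPM in naïve ESCs. The naïve mouse libraries held 4.05 and 4.75 CPM, the EpiLC libraries 0.296 and 1.12 CPM, the early gastruloids 2.57 and 2.20 CPM, and the late gastruloids 5.37 and 6.11 CPM. It fell from naïve ESCs to EpiLCs (log2 change -2.37 ± 0.37, adjusted p = 1.58e-07) and rose from early to late gastruloids (1.23 ± 0.28, adjusted p = 8.00e-05). Both late libraries lay above both naïve libraries, with means of 34.9 ± 2.58 and 24.5 ± 2.25 TPM.

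Before the late stage, some mouse genes of the set were called in each comparison. The shares over all tested genes are given in brackets, and no difference from them was tested. Gata5 had 0 counts in all of these libraries and could not be called, and several other genes held few counts. A gene that was not called is therefore not shown to be unchanged. From naïve ESCs to EpiLCs, 1 gene was called higher (17.7% of tested genes) and 2 were called lower (12.1%), the rise being in Hand1 (log2 change 2.13 ± 0.61, adjusted p = 0.00177) and the second fall, beside Myl7, in Tbx20 (-1.69 ± 0.56, adjusted p = 0.00694). From naïve ESCs to early gastruloids, 1 gene was called higher (16.2%) and 1 lower (6.81%), and these were Hand1 (log2 change 1.44 ± 0.64, adjusted p = 0.0453) and Hand2, which had 3 and 4 counts in naïve ESCs and 1 and 0 in early gastruloids (ratio 12.1, exact 95% interval 1.55 to 545). This Hand1 call was lost under DESeq2, without the filter, and when replicate 1 of the naïve ESCs or either early gastruloid library was left out. From EpiLCs to early gastruloids, 2 genes were called higher (11.7%) and 1 lower (9.24%), namely Myl7 (log2 change 1.49 ± 0.39, adjusted p = 0.000755), Gata6 (1.56 ± 0.63, adjusted p = 0.0277) and Tbx5, which had 4 counts over both EpiLC libraries and 0 over both early ones. The Gata6 and Tbx5 calls were lost under DESeq2 and when either EpiLC library or replicate 1 of the early gastruloids was left out, the Tbx5 call also without replicate 2 of the early gastruloids.

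Most tested genes of the wider cardiac lists were also called higher in late mouse gastruloids. Of 31 other cardiac regulators, 27 were tested, 21 rose and 0 fell, with a median log2 change of 4.84. Over all tested mouse genes 20.1% rose and 19.1% fell, with a median of -0.03. Some listed genes, such as Mef2c, Meis1 and Foxc2, were low in every earlier group. They passed the filter through the late group and had to differ, so the counts and medians of these lists are descriptions. The regulators with the highest late TPM were Aldh1a2, the enzyme that makes retinoic acid in mesoderm, at 4.17 ± 0.941 CPM early and 145 ± 9.38 CPM late; Foxf1, a forkhead factor of lateral plate mesoderm, with 3 and 0 counts early and 699 and 544 counts late; Zfpm1, a cofactor of GATA proteins, at 17.1 ± 0.176 and 104 ± 1.36 CPM; and Srf, which was not called, at 70.1 ± 4.16 and 83.1 ± 3.13 CPM. Of 23 sarcomere and calcium handling genes, 19 were tested, 13 rose and 3 fell, with a median of 3.63. Tnni1, the slow skeletal and embryonic cardiac troponin I, rose by a log2 change of 4.29 ± 0.14 from 3.03 ± 0.183 CPM, Actc1, cardiac actin, from 0.324 ± 0.0392 to 14.7 ± 0.858 CPM, and Tpm1, a tropomyosin, from 101 ± 0.246 to 292 ± 12.9 CPM. Atp2a2, the calcium pump of the sarcoplasmic reticulum, was not called at 384 ± 16.4 and 375 ± 1.54 CPM. The genes called lower with the highest early TPM were Myl2, the ventricular light chain, at 3.41 ± 0.280 CPM early and 0.207 ± 0.128 CPM late, and Nppb, a natriuretic peptide, at 0.961 ± 0.382 and 0.0745 ± 0.105 CPM.

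Markers of other cell types that use these factors were read in the same mouse libraries. The 8 definitive endoderm markers summed to between 15.9 and 17.1 CPM in early and between 149 and 150 CPM in late gastruloids, with 7 of 8 called higher. The 7 primitive and parietal endoderm markers summed to between 419 and 443 CPM early and between 1471 and 1480 CPM late, with 6 of 7 called higher, Sox17 being on both endoderm lists. The 7 fibroblast markers summed to between 2.52 and 2.99 CPM early and between 501 and 544 CPM late, with 7 of 7 called higher, and 4 of 5 limb and lateral plate markers, one of them Foxf1 of the regulator list, were called higher and Tbx4 lower (3.25 and 0.962 CPM). The 7 cardiomyocyte markers are all on the sarcomere and calcium handling list as well, so the lists are not separate readings. These markers summed to between 4.66 and 6.96 CPM early and between 86.4 and 87.3 CPM late, with Nppa at 0 in both late libraries. Of the 5 tested, 4 were called higher and 1 lower, and Tnnt2 alone held 48.4 CPM late. Markers that were low before the late stage passed the filter through it and had to differ, so these counts are descriptions. Of all tested mouse genes, 20.1% were called higher and 19.1% lower. The part of each cell type in the rise of the 10 genes was not tested. Among the other GATA genes, Gata3 rose from 0.500 ± 0.288 to 14.2 ± 2.43 CPM and Gata2, at 5.05 ± 0.677 and 8.31 ± 0.798 CPM, was not called.

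In human, the same genes followed another course. Summed over the 10, naïve H9 held 111 ± 23.9 CPM and primed H9 1.32 ± 0.0876 CPM. The primed RUES2-GLR cells held 1.57 ± 0.940 CPM, and the gastruloids made from them 24.0 ± 3.55 CPM at the early and 4.36 ± 0.971 CPM at the late stage. The highest sum among the 5 human groups was thus in naïve ESCs, and the gastruloid sum was higher at 24 h than at 120 h. On GRCh38, HAND1 (154474972 to 154478227, minus strand), NKX2-5 (173232109 to 173235311, minus strand) and ISL1 (51383448 to 51394730, plus strand) lie on chromosome 5, GATA4 on chromosome 8 (11676959 to 11760002, plus strand), GATA5 on chromosome 20 (62463497 to 62475995, minus strand) and GATA6 on chromosome 18 (22169589 to 22202528, plus strand). TBX20 (35202430 to 35254100, minus strand) and MYL7 (44138864 to 44141332, minus strand) lie on chromosome 7, HAND2 on chromosome 4 (173524969 to 173530229, minus strand) and TBX5 on chromosome 12 (114353911 to 114408442, minus strand). In late RA-gastruloids 6 of the 10 genes were at or under 3 counts over the group, and HAND1, TBX20, ISL1 and MYL7 had 0 counts in both late libraries.

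**Figure D2:**
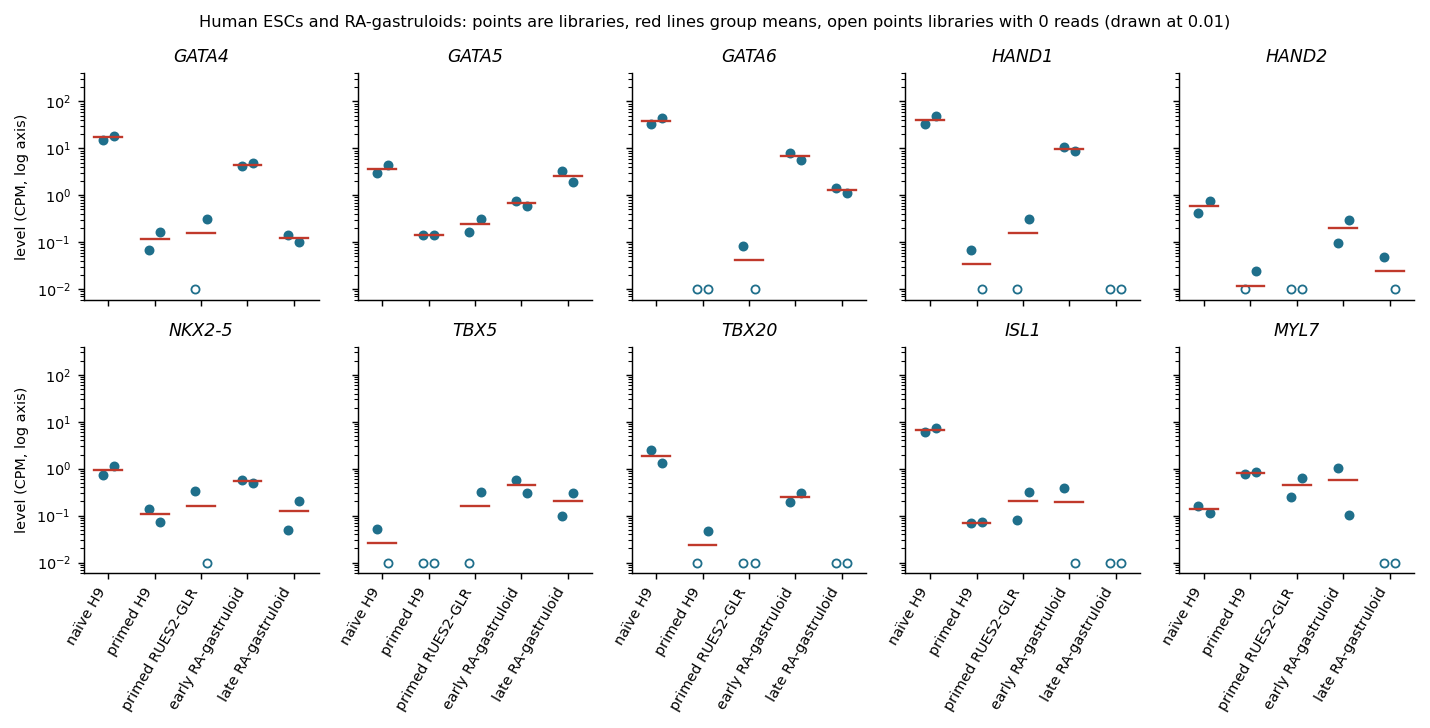
Level of each of the 10 genes in the 10 human libraries, in CPM on a log axis, by group; filled points are libraries, open points are libraries with 0 reads drawn at 0.01, and red lines are means of 2 libraries. GATA4, GATA6 and HAND1 are high in naïve H9 ESCs, near 0 in primed ESCs, intermediate in early RA-gastruloids and lower again in late RA-gastruloids.

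**Figure D3:**
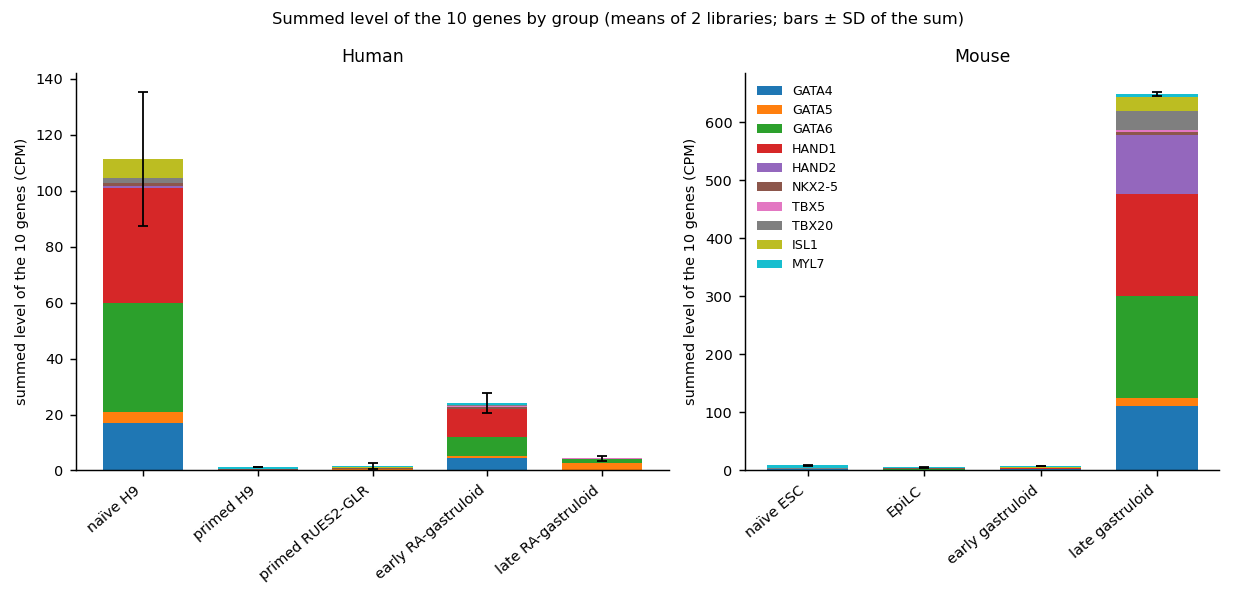
Summed level of the 10 genes in each group in CPM, stacked by gene, with bars for the SD of the sum over 2 libraries; the human and mouse panels have separate linear axes. The human sum is highest in naïve H9 ESCs (111 CPM) and the mouse sum in late gastruloids (648 CPM).

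Primed RUES2-GLR ESCs were compared with the early RA-gastruloids made from them. HAND1, GATA6 and GATA4 rose, so 3 of the 7 tested genes were called higher, against 12% of all tested genes, and 0 were called lower, against 17.6%. On these groups alone only 3 genes passed the filter. With 1 count over both ESC libraries, HAND1, GATA6 and GATA4 could pass there only through the early stage. They were high at that stage and had to differ. The other tested genes entered the fit through other groups. The counts of 3 higher and 0 lower are therefore descriptions. HAND1 had 0 and 1 counts in the ESCs and 111 and 87 counts in early RA-gastruloids (10.7 and 8.78 CPM), a ratio of 149.6 with an exact 95% interval from 26.5 to 5939. GATA6 went from 1 and 0 counts to 83 and 57 counts (7.98 and 5.75 CPM), a ratio of 105.8 with an interval from 18.7 to 4208. GATA4 went from 0 and 1 counts to 44 and 48 counts (4.23 and 4.84 CPM), a ratio of 69.5 with an interval from 12.2 to 2775. Both early libraries lay above both ESC libraries for each of the 3. The 7 primitive and parietal endoderm markers summed to between 1957 and 2036 CPM in these ESCs. In early RA-gastruloids they summed to between 1231 and 1233 CPM, with 3 of 7 called higher and 1 lower. The 8 definitive endoderm markers summed to between 25.5 and 33.8 CPM in these ESCs and between 292 and 296 CPM in early RA-gastruloids, with 5 of 6 tested called higher, and the 5 limb and lateral plate markers to between 1.27 and 2.21 CPM and between 24.3 and 24.8 CPM, with 3 of 4 tested called higher and 1 lower. Markers at or under the floor in the ESCs could pass the filter only through other groups, so the marker counts are descriptions as well. The part of these cell types in the rise was not tested. GATA5, ISL1, MYL7 and TBX20 were not called, and their early means were between 0.192 and 0.687 CPM. HAND2, NKX2-5 and TBX5, which were not tested, had 4, 11 and 9 counts over both early libraries.

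From early to late RA-gastruloids, 6 of the 7 tested genes were called lower, against 13.2% of all tested genes, and 1 was called higher, against 11.8%. Only HAND1, GATA4, GATA6 and GATA5 passed the filter on these stages alone (3 lower, 1 higher). HAND1 and GATA4 did so through the early stage and GATA5 through the late stage, in each case where the gene was higher. MYL7, TBX20 and ISL1 entered the fit through the H9 groups, where they were higher. The counts of 6 and of 3 lower and of 1 higher are therefore descriptions. The median log2 change of the tested genes was -2.35 with bounds and ratios in place of fitted values (-5.01 as fitted) and 0 over all genes. HAND1 fell from 111 and 87 counts to 0 and 0, at least 98.9-fold lower against the floor of 3 counts over the late group. GATA4 fell from 4.54 ± 0.436 to 0.124 ± 0.0308 CPM (log2 change -5.03 ± 0.48, adjusted p = 2.23e-10) and GATA6 from 6.86 ± 1.57 to 1.29 ± 0.236 CPM (-2.35 ± 0.29, adjusted p = 3.96e-08). GATA5 alone rose, from 0.769 and 0.606 CPM to 3.25 and 1.94 CPM (1.98 ± 0.43, adjusted p = 0.000272). GATA5 and GATA6, the latter with 30 and 11 counts, were the only 2 of the 10 genes with at least 1 CPM in both late libraries.

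The other falls rested on few reads. MYL7 had 11 and 1 counts early and 0 late (adjusted p = 0.00176), TBX20 had 2 and 3 early and 0 late (adjusted p = 0.0278), and ISL1 had 4 and 0 early and 0 late (adjusted p = 0.0410). Against the floor of 3 counts these were at least 5.99-fold, 2.50-fold and 2.00-fold lower, and the ISL1 libraries of the stages overlapped at 0. The MYL7 call was lost without replicate 1 of the early RA-gastruloids, the TBX20 call without replicate 2 of the early or either late library, and the ISL1 call without replicate 1 of the early or either late library. NKX2-5, which was not tested, had 6 and 5 counts early and 1 and 2 late, a ratio of 5.49 with an exact 95% interval from 1.45 to 30.7.

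The wider cardiac lists moved both ways in human. In primed RUES2-GLR ESCs, 14 of the 31 other regulators were at or under 3 counts over the group. Such genes could pass the filter only through other groups. The counts and medians of the lists in this paragraph are therefore descriptions. Between the primed RUES2-GLR cells and the early stage, 20 of 29 tested regulators rose and 1 fell. Their median log2 change was 2.52 with bounds and ratios (3.17 as fitted). Over all tested genes 12% rose and 17.6% fell, with a median of 0.08. From early to late, 29 of the 31 other cardiac regulators were tested, 9 rose and 11 fell, with a median log2 change of 0.23. Over all tested genes 11.8% rose and 13.2% fell, with a median of 0. The regulators with the highest late TPM were FOXC1 and FOXC2, forkhead factors of paraxial and head mesoderm, at 137 ± 9.26 and 50.4 ± 1.28 CPM late and 117 ± 4.83 and 32.1 ± 2.71 CPM early, neither called; SRF, also not called, at 83.3 ± 0.387 CPM early and 92.3 ± 12.3 CPM late; and ALDH1A2, which rose from 35.6 ± 0.433 to 117 ± 1.44 CPM. FGF8, a growth factor of the primitive streak and anterior heart field, fell from 87.7 ± 0.123 to 3.09 ± 0.249 CPM, and WNT5A, a non-canonical WNT ligand, fell from 411 ± 16.8 to 35.9 ± 2.92 CPM. Of the 23 sarcomere and calcium handling genes, 14 were tested, 0 rose and 6 fell, with a median of -0.70. Their highest late TPM belonged to ATP2A2, ACTC1, TPM1 and NEBL, none of them called and all also read in primed ESCs. TNNC1, cardiac troponin C, fell from 9.67 ± 1.68 to 1.83 ± 0.287 CPM, and TNNI3, cardiac troponin I, from 3.25 ± 0.252 to 0.793 ± 0.113 CPM. The 7 cardiomyocyte markers, all of them also on the sarcomere list, summed to between 7.37 and 8.84 CPM early and between 1.89 and 2.34 CPM late. TNNT2 and MYH6 were at 0 in both late libraries. The 8 definitive endoderm markers summed to between 292 and 296 CPM early and between 63.0 and 75.9 CPM late, with 4 called lower and 1 called higher. The part of endoderm or of cardiomyocytes in the fall of the genes was not tested.

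**Figure D4:**
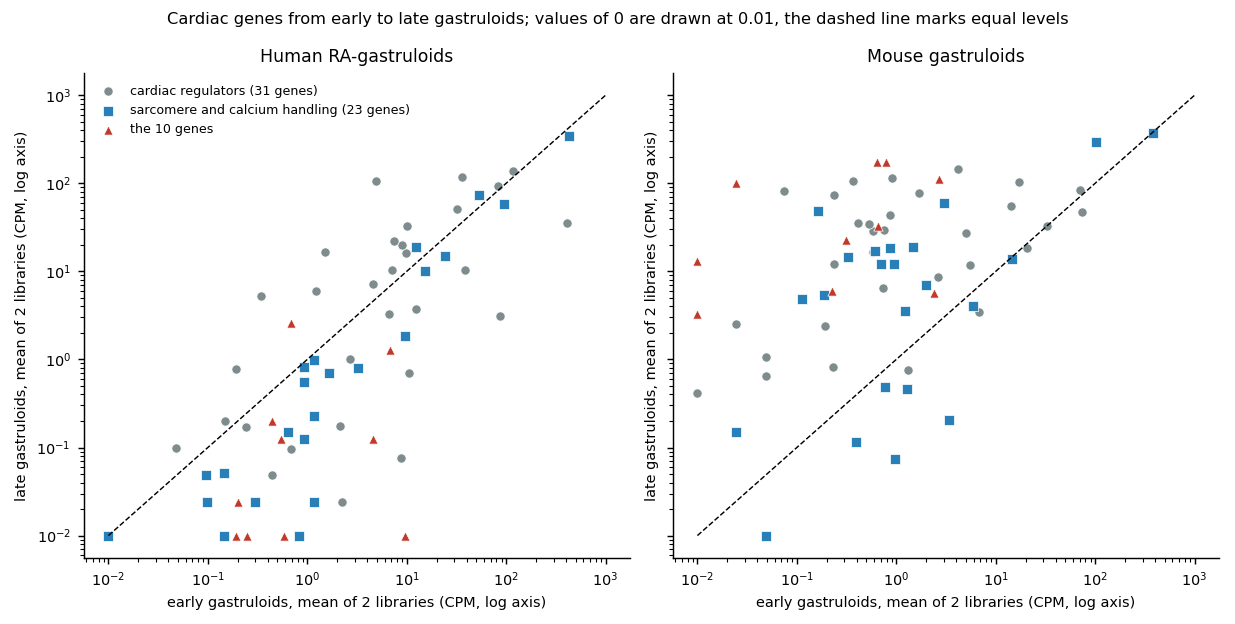
Mean level of each cardiac gene in early (horizontal) and late (vertical) gastruloids, in CPM on log axes, for human and mouse; triangles are the 10 genes, circles the 31 other cardiac regulators and squares the 23 sarcomere and calcium handling genes, with values of 0 drawn at 0.01. All 10 triangles lie above the line of equal levels in mouse, and in human only GATA5 does.

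The change from early to late was then compared between the species in 1 fit over 14007 genes with shared symbols. The human minus mouse difference was called for all 10 genes, against 35.4% of all genes tested, and it was negative for each. HAND2, NKX2-5 and TBX5, which had failed the human filter, entered this fit through late mouse gastruloids, where they were high, and had to differ, so the count over the 10 is a description. For the genes with more than 3 counts in all 4 groups, the difference in log2 change was -10.21 ± 0.45 for GATA4 (adjusted p = 2.21e-20) and -10.17 ± 0.38 for GATA6 (adjusted p = 3.91e-22). GATA5 rose in both species, from 14 to 86 counts over the group in human and from 0 to 200 in mouse, and its difference was also called (adjusted p = 1.03e-06). Leaving out replicate 1 of the early RA-gastruloids ended the call of ISL1 and of MYL7. Species, cell line, protocol and hours differ together between these arms and cannot be told apart.

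Naïve and primed H9 ESCs differed in each of the 7 tested genes. From naïve to primed, 6 of the 7 tested genes were called lower, against 22.3% of all tested genes, and 1 was called higher, against 25.5%. GATA6 held 33.1 and 44.9 CPM in naïve H9 and 0 counts in both primed H9 libraries, at least 726-fold lower against the floor of 3 counts over the primed group. HAND1 held 33.2 and 49.3 CPM in naïve and 1 and 0 counts in primed H9, a ratio of 2302 with an exact 95% interval from 413 to 91000. GATA4 held 15.4 and 18.8 CPM against 0.0699 and 0.167 CPM (log2 change -6.84 ± 0.32, adjusted p = 1.68e-18). ISL1 held 5.96 and 7.46 CPM against 0.0699 and 0.0715 CPM (-6.41 ± 0.46, adjusted p = 1.24e-13), and GATA5 2.93 and 4.42 CPM against 0.140 and 0.143 CPM (-4.61 ± 0.43, adjusted p = 3.96e-11). TBX20 had 47 and 23 counts against 0 and 2, a ratio of 53.9 with an interval from 14.4 to 454. The untested HAND2 and NKX2-5 had 21 and 34 counts over both naïve libraries and 1 and 5 over both primed ones. MYL7 went the other way, with 3 and 2 counts in naïve and 11 and 36 in primed H9 (2.53 ± 0.69, adjusted p = 0.00157), a call that was lost under DESeq2. TBX20 and ISL1 passed the filter through naïve H9 and MYL7 through primed H9, where they were high, and so had to differ. The counts of 6 lower and 1 higher are therefore descriptions. TBX5 was at 1 and 0 counts in naïve H9, so the naïve cells held 8 of the 9 transcription factors above the floor.

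Other lists moved with the 6 genes in naïve H9. In primed H9, 9 of the 31 other regulators were at or under 3 counts over the group. Such genes could pass the filter only through other groups, so the counts of the lists below are descriptions. From naïve to primed, 15 of 29 cardiac regulators fell and 4 rose, whereas 8 of 14 sarcomere and calcium handling genes rose and 2 fell. Over all tested genes 22.3% fell and 25.5% rose. The 7 amnion and trophoblast markers summed to between 665 and 980 CPM in the naïve and between 19.5 and 20.2 CPM in the primed libraries, with 6 of 7 called lower from naïve to primed. CGA, the alpha subunit of chorionic gonadotropin, stood at 467 ± 187 CPM in naïve H9, GATA2 at 184 ± 23.3 CPM and GATA3 at 117 ± 10.4 CPM, whereas GATA2 and GATA3 were at 0.403 ± 0.273 and 0.293 ± 0.179 CPM in primed H9. GABRP, another marker of that list, was lower in naïve (0.650 ± 0.189 CPM) than in primed H9 (8.55 ± 0.664 CPM). The 7 fibroblast markers summed to between 676 and 694 CPM in naïve and between 271 and 281 CPM in primed H9; COL3A1 fell from 176 ± 6.64 to 0.0588 ± 0.0157 CPM, and DCN was at 7.12 ± 1.31 CPM in naïve and 0 in both primed libraries. Mouse reads could enter human counts where the sequences are alike. Of windows of 100 bases cut from mouse transcripts, 26.5% of Col1a1, 8.97% of Col3a1, 6.85% of Hand1, 6.47% of Gata6, 2.73% of Gata4, 43.9% of Isl1, 0.277% of Tbx20 and 0 of 130 windows of Gata5 aligned to the human gene of the same name. The same share was 27.5% for Hand2, 10.2% for Nkx2-5, 10.5% for Gata2, 9.46% for Gata3 and 0.816% for Dcn. For Cga, 0 of 30 windows aligned. Definitive endoderm markers summed to 34.1 to 34.6 CPM in naïve and 4.61 to 4.69 CPM in primed H9 (3 of 6 lower, 1 higher). Primitive and parietal endoderm markers summed to 1178 to 1259 CPM and 710 to 718 CPM (3 of 7 lower, 1 higher). Among the human groups this sum was highest in primed RUES2-GLR ESCs, at 1957 to 2036 CPM. Limb and lateral plate markers summed to 34.3 to 43.8 CPM and 0.500 to 0.769 CPM (3 of 4 lower, 0 higher). The part of trophoblast-like cells, endoderm, lateral plate, feeder fibroblasts or mouse reads in the levels of the 10 genes was not tested. The cardiomyocyte markers, all of them also on the sarcomere list, were lower in naïve (between 7.63 and 9.06 CPM) than in primed H9 libraries (between 17.1 and 17.4 CPM). TNNT2 was at 0.0548 ± 0.00361 CPM in naïve H9.

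**Figure D5:**
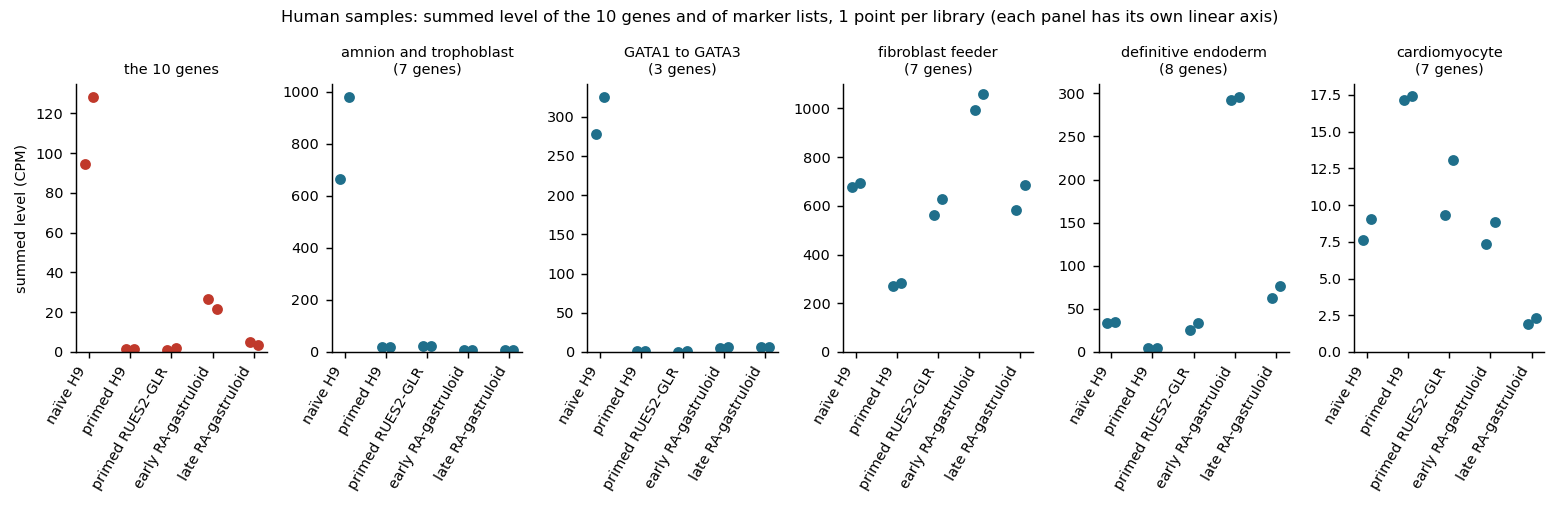
Summed level in CPM of the 10 genes and of 5 marker lists in the 10 human libraries, 1 point per library, with a separate linear axis in each panel. The 10 genes, the amnion and trophoblast markers and GATA1 to GATA3 are highest in naïve H9 ESCs, and the fibroblast and definitive endoderm markers are highest in early RA-gastruloids. GATA2 and GATA3 are also on the amnion and trophoblast list, so these panels share genes.

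Between the primed lines no gene of the set was called. From primed H9 to primed RUES2-GLR ESCs, 0 of the 7 tested genes were called higher (17.1% of tested genes) and 0 lower (12.2%), and in both lines no more than 47 counts were read for any of the 10 genes. At the depth of the RUES2-GLR libraries, with 8 of the 10 genes at or under 3 counts over the group, a difference between the lines was not detectable for most of them. With DESeq2 the count was also 0 in both directions, and the unadjusted p was under 0.05 for 0 of the 7 genes in edgeR.

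The order of groups differed among the genes. GATA4, GATA6 and HAND1 shared the order naïve H9, early RA-gastruloids and then the remaining groups, and for each of the 3 the libraries of naïve H9 and early RA-gastruloids did not overlap with one another or with any other group. For GATA6, late RA-gastruloids came next, above both primed groups, whereas the 2 primed groups and the late stage overlapped for GATA4. GATA5 ran from naïve H9 through late and early RA-gastruloids to the primed ESCs, and its naïve and late libraries overlapped. TBX20, ISL1, HAND2 and NKX2-5 were highest in naïve H9, MYL7 in primed H9 and TBX5 in early RA-gastruloids. In mouse all 10 genes were highest in late gastruloids, and for Hand2, Nkx2-5, Isl1, Gata5 and Tbx5 the means of the 3 earlier groups lay between 0 and 0.518 CPM.

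The genes with the most similar course were searched over group-mean log2 CPM profiles, centred per gene, among 14609 human and 13788 mouse protein-coding genes. The 10 genes themselves were not candidates. In human, the nearest candidate to HAND1 and to GATA6 was NRN1, a neuritin, with root mean square differences of 1.03 and 0.82 over 5 groups, whereas GATA5 was much closer to TNRC18 and GPCPD1 (0.25 and 0.27) and ISL1 to CCR8 and PAX5 (0.20 and 0.21). Among the human genes themselves the closest pairs were TBX20 with ISL1 (0.85) and GATA4 with HAND1 (0.89). In mouse, over 4 groups, Gata4 was nearest to Flrt3 (0.065), Gata5 to Foxf2 (0.00766), Gata6 to Prrx1 (0.20), Hand1 to Frem1 (0.31), Hand2 to Spink1 (0.37), Tbx20 to Pcdhgb6 (0.16), Isl1 to Pcdhb19 (0.095), and Nkx2-5 to Spdef (0.11). Nkx2-5 and Tbx5 were closer to each other (0.088) than to any of the candidates outside the set, and Myl7 was nearest to Emp2 and Lifr (0.080 and 0.098), which like it were lower in EpiLCs (2.65 and 7.28 CPM) than in naïve ESCs (14.8 and 37.3 CPM). With so few groups, many low genes share such a profile, and the likeness is a description of these groups.

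Entries on the opposite strand that overlapped a gene of the set or started within 5 kb of its start numbered 8 in the human and 5 in the mouse count table, and a further 1 human and 5 mouse entries of the annotation were not analysed here. ISL1-DT had 62 and 55 counts in naïve H9 and no more than 3 in any other human library. GATA6-AS1 had 30 and 21 counts in naïve H9, 0 in the primed libraries, 8 and 5 at the early and 7 and 1 at the late stage. Of the mouse entries, Gata6os had 72 and 46 counts and Hand2os1 25 and 23 counts in late gastruloids, and both had 0 in the 6 other libraries. Per the study's methods the counting used default parameters. These take no account of strand and leave out reads that overlap exons of more than 1 gene. How far this changed the counts of a gene or of its antisense neighbour was not tested.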

How the data were processed

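RNA-seq counts per gene were used as the authors deposited them, as 1 table of raw read counts for human and 1 for mouse. Per the labels and the study's methods, reads were demultiplexed with bcl2fastq 2.20, checked with FastQC, trimmed with Trimmomatic 0.39, aligned with STAR and counted with featureCounts. Genes were found by Ensembl identifier in GENCODE 44 (human) and 39 (mouse), and all sample columns were mapped to the labels. Counts were normalised by TMM, filtered with filterByExpr and tested in 1 fit over all groups of a species by the quasi-likelihood test of edgeR 4.0.16 (R 4.3.3), with Benjamini-Hochberg adjustment over all tested genes. Calls needed an adjusted p under 0.05 together with a log2 fold change above 1 in size, and the fit was tested on simulated data. The species were compared in a fit over genes matched by symbol. Where a group held 0 counts, folds were bounds against a floor of 3 counts over the group, and with 1 to 3 counts they were ratios with exact 95% intervals, all covering counting error only. TPM used exon lengths of the annotation. Mouse windows of 100 bases in steps of 25 were aligned to human transcripts with minimap2 2.31 and counted where 66 bases or more aligned with no more than 10 mismatches and gaps. DESeq2 1.42.0, other scalings, no filter, only the compared groups, the replicate number as a block and each replicate left out were alternatives. Named are all 10 genes, and from each cardiac list up to 4 genes with the highest late TPM and up to 2 called lower with the highest early TPM. Markers named outside that rule were chosen after their values were seen. The 10 genes and all lists were chosen with earlier results of these data known. Sequencing used 2 paired-end configurations that the sources used here do not assign to samples.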

Additional observations from a re-analysis of the deposited data

Results flagged for a closer look

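The change from early to late gastruloids differed between human and mouse for each of the 10 genes by a test of the difference itself, the species term of the edgeR quasi-likelihood fit with Benjamini-Hochberg adjustment over 14007 genes. The adjusted p was 2.21e-20 for GATA4, 1.03e-06 for GATA5, 3.91e-22 for GATA6, 3.82e-23 for HAND1 and 1.43e-07 for HAND2. It was 9.91e-07 for NKX2-5, 6.02e-06 for TBX5, 3.97e-06 for TBX20, 2.63e-05 for ISL1 and 0.000144 for MYL7. In each case the human change was lower than the mouse change, and 35.4% of all genes tested were also called. For every gene except GATA4 and GATA6 at least 1 of the 4 groups held 3 counts or fewer, so the size of the fitted difference depended on the prior count. HAND2, NKX2-5 and TBX5 failed the filter in human and passed it here through late mouse gastruloids, where they were high, so they had to differ and their values are descriptions.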

How the results depend on the processing

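Across the alternatives, 682 of 713 fold changes of the 10 genes kept their direction and their side of the threshold, 23 lost the call, 8 gained it and 0 reversed, and 354 of 386 counts stayed within 1.5 times the main count. Under DESeq2, MYL7 was lost from naïve to primed H9 ESCs, so 0 of the genes were called higher. With only the compared groups in the fit, which lets fewer of the low genes pass the filter, 3 genes instead of 6 were called lower from early to late RA-gastruloids, 0 higher and 1 lower from mouse naïve ESCs to EpiLCs, 0 higher and 0 lower from mouse naïve ESCs to early gastruloids, and 1 higher and 0 lower from EpiLCs to early gastruloids. From mouse naïve ESCs to early gastruloids, 0 genes were called higher without the filter or by DESeq2, and 2 lower by the adjusted p alone. From EpiLCs to early gastruloids, DESeq2 called 1 higher and 0 lower. In the cardiac regulator list, 2 mouse genes were called lower by the adjusted p alone and 1 by upper quartile scaling or without the filter, against 0. In the sarcomere list, 4 genes without the filter and 1 in the fit of the compared groups fell from naïve to primed H9, against 2, and by the adjusted p alone 2 rose and 10 fell from early to late RA-gastruloids, against 0 and 6. Among GATA1 to GATA3 in late mouse gastruloids, 2 were higher by the adjusted p alone and 1 lower without the filter. With single libraries left out, the counts ranged from 0 to 1 higher and from 1 to 2 lower (mouse naïve ESCs to early gastruloids, the extremes without early replicate 1), from 1 to 2 higher and from 0 to 1 lower (EpiLCs to early gastruloids), from 0 to 1 for regulators lower in mouse, from 1 to 3 for sarcomere genes lower in primed H9 and from 1 to 3 in mouse, and from 0 to 1 for other GATA genes lower in mouse. Except where the alternative itself tests fewer genes or samples, the cause was not tested. Same-numbered replicates did not deviate together (human correlations lay between -0.112 and 0.0684, mouse ones between -0.0483 and 0.00806), so the numbers do not pair the samples. With the replicate number as a block, 6 genes were still called lower and 1 higher from early to late RA-gastruloids and 10 higher in mouse, and the replicate block moved no count by more than 1.5 times. By TPM in place of CPM, 16 of the 20 genes kept the order of their groups and all 20 their highest group. In late RA-gastruloids 6 of the 10 genes were at or under 3 counts over the group, so their change could be given only as a bound or a ratio.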
